A study of Mus musculus with 20 samples.

Results

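Oct4-GFP SNEL#1 and Oct4-GFP OSKM#2 are 2 mouse induced pluripotent stem cell (iPSC) lines of the same Oct4-GFP origin, and their expression was compared gene by gene. They were taken by their labels and account for 4 of the 20 arrays of the series, 2 arrays per line. SNEL#1 was reprogrammed with SNEL (Sall4, Nanog, Esrrb and Lin28) and is graded high quality, while OSKM#2 was reprogrammed with OSKM (Oct4, Sox2, Klf4 and Myc) and is graded poor quality, without a statement of how quality was scored. The embryonic stem cell (ESC) line of that origin, Oct4-GFP ESCs, was set beside them with 2 arrays. The same contrast in another origin came from Nanog-GFP SNEL#2 (high quality), Nanog-GFP SNEL#3 (good quality) and Nanog-GFP OSKM#2 (poor quality), with 6 arrays. Every line was untreated and grew feeder-free in 2i medium, in which a MEK inhibitor and a GSK3 inhibitor hold cells in the naive state, and total RNA was hybridised in 1 colour. Each side is a single line, so the factors used, the quality grade and the clone cannot be told apart. Whether the 2 arrays of each line stem from different cultures is not stated in the labels, and the p values therefore cover only array-to-array spread, which may be technical.

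Reprogramming resets a somatic cell to a state in which Oct4, Sox2, Nanog and Esrrb maintain one another's expression and the transgenes are no longer needed. Mouse cells in that state keep somatic genes silent, while the repression of germline genes and of imprinted alleles depends on DNA methylation that culture can erode. MEK inhibition lowers the targets of ERK signalling, and GSK3 inhibition raises those of Wnt signalling, so both groups report on how cells stand in 2i.

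Levels are given as log2 of the processed signal after subtraction of that array's 75th percentile, and differences are SNEL#1 minus OSKM#2 on the log2 scale. Between 49.5% and 68.0% of probes on the SNEL#1 arrays were well above background, against 64.8% to 67.8% on the OSKM#2 arrays and 48.9% to 77.2% over the series. The root mean square difference over all genes was 0.664 between the arrays of SNEL#1 and 0.576 between those of OSKM#2, and 0.744 to 0.804 between arrays of different lines. By line means, SNEL#1 was 0.577 from Nanog-GFP ESCs, 0.638 from OSKM#2 and 0.873 from Oct4-GFP ESCs, so the ESC line nearest to it was not that of its own origin. OSKM#2 was 0.733 from Oct4-GFP ESCs. All 30 measured pluripotency genes were well above background on both arrays of both lines. Y-linked Eif2s3y, at 3.67 and 3.74 in SNEL#1 and 3.16 and 3.24 in OSKM#2, and Ddx3y were expressed in both. The summed linear level of the 5 sex-linked genes was 15.3 and 15.7 in SNEL#1, against 0.125 and 0.115 in Nanog-GFP ESCs.

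Of 27161 genes tested, 3230 (11.9%) were called higher in SNEL#1 and 5318 (19.6%) lower, by limma's moderated test with the Benjamini-Hochberg adjusted p under 0.05. A call is used in that sense throughout, and the counts of each gene list below are to be read against these shares. The median difference over all genes was -0.07. At least 2-fold differences were fewer, with 1022 genes (3.76%) called higher and 692 (2.55%) lower. The 4 arrays did not overlap for 16448 genes (60.6%), 6717 (24.7%) higher and 9731 (35.8%) lower, and calls were made for 3227 (48%) of those higher and 5312 (54.6%) of those lower. Calls from the spread of these 4 arrays alone numbered 1550 higher and 1568 lower. The median difference of each autosome and of the X chromosome, taken relative to all genes, lay between -0.036 and 0.039.

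Of the 8 reprogramming factors, Myc and Lin28a were lower in SNEL#1, Klf4 was slightly higher and 5 were not called. Myc, a growth-driving transcription factor and a member of the OSKM set, had levels of -3.71 and -3.69 in SNEL#1, against -0.60 and -0.45 in OSKM#2 (mm9 chr15:61821417-61821476). Its levels did not overlap, and it was 9.04-fold lower in SNEL#1 (-3.18 ± 0.06, SE, adjusted p = 2.47e-10). Lin28a, an RNA-binding protein that blocks let-7 maturation and the L of SNEL, was at 2.33 and 2.31 in SNEL#1 and at 4.34 and 4.31 in OSKM#2. It was 4.02-fold lower in the line made with Lin28 (-2.01 ± 0.10, adjusted p = 1.11e-07). Klf4 rose by 0.27 ± 0.08 (adjusted p = 0.0205), with 4.78 and 4.90 in SNEL#1 and 4.58 on both arrays of OSKM#2, and its call was lost without SNEL#1 array 2 or either OSKM#2 array (adjusted p = 0.0841 to 0.143) and from the 4 arrays alone (adjusted p = 0.159). The other 5 factors were not called. Their differences were -0.20 for Pou5f1 (Oct4), 0.22 for Sox2, -0.16 for Sall4, 0.15 for Nanog and -0.20 for Esrrb, with adjusted p = 0.0542 to 0.485. Whether the probes also read transgene RNA was not checked, and transgene and endogenous RNA were not told apart.

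**Figure D1:**
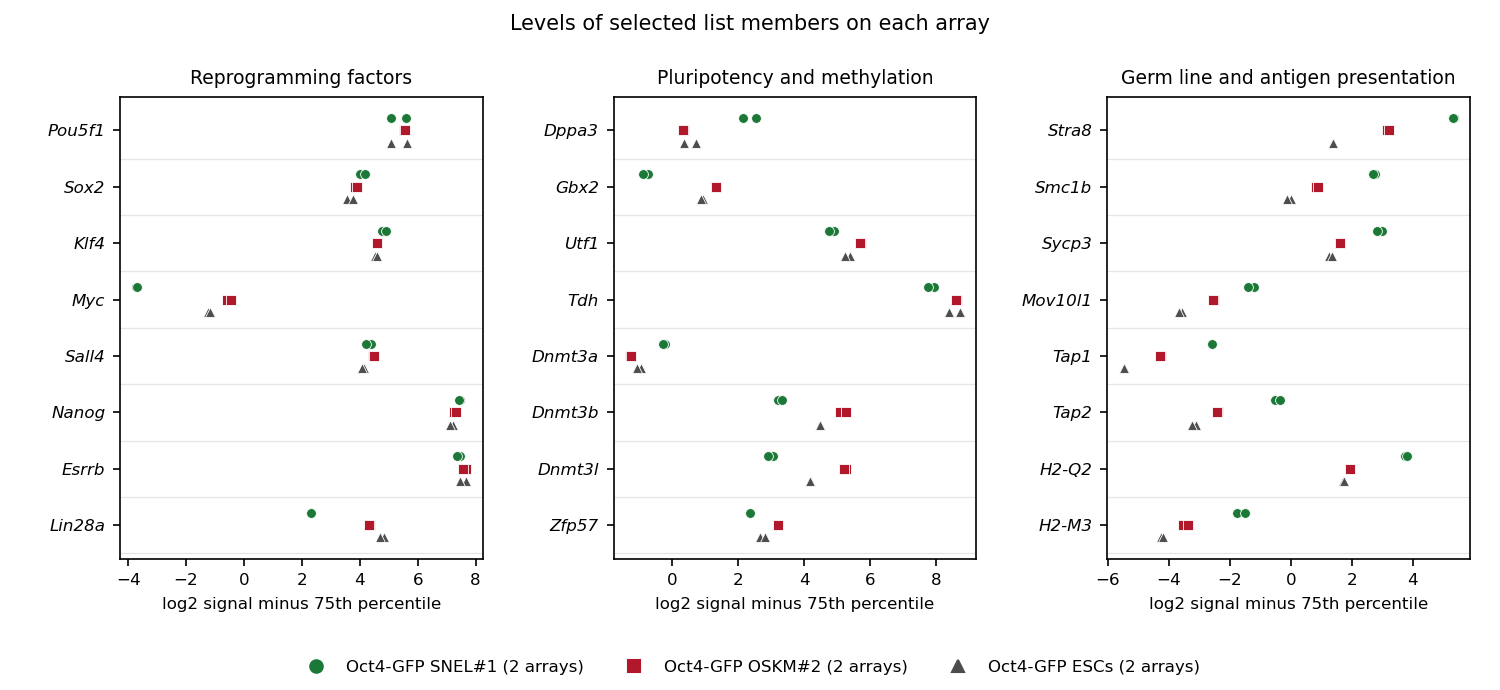
Levels on each array (log2 signal minus the array's 75th percentile) of the 8 reprogramming factors, 8 pluripotency or DNA methylation genes and 8 germline or antigen presentation genes, with 2 points for each of Oct4-GFP SNEL#1, Oct4-GFP OSKM#2 and Oct4-GFP ESCs. Myc lies at -3.71 and -3.69 in SNEL#1 and at -0.60 and -0.45 in OSKM#2, while Nanog and Esrrb lie close together in all 3 lines.

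Within the pluripotency network, 6 of 30 genes were called higher and 11 lower, with a median difference of -0.16. Under quantile normalization these counts were 10 and 8, and the median was -0.02 there and without SNEL#1 array 2. Dppa3 (Stella), a maternal factor that shields the oocyte and early embryo genome from methylation changes, rose to 2.16 and 2.55 in SNEL#1, against 0.38 and 0.33 in OSKM#2. That is 3.99-fold (2.00 ± 0.16, adjusted p = 3.74e-06), and Oct4-GFP ESCs lay with OSKM#2 at 0.36 and 0.74. Gbx2, a homeobox factor that sustains self-renewal, fell to -0.73 and -0.87 in SNEL#1, against 1.33 on both arrays of OSKM#2 (-2.13 ± 0.08, adjusted p = 1.65e-08). Smaller falls were seen for Utf1, a chromatin-bound ESC protein (-0.87 ± 0.10), and for Tdh, the threonine dehydrogenase that feeds folate metabolism in mouse ESCs (-0.77 ± 0.12). Esrrb, Klf2, Tbx3 and Zfp42 (Rex1) were among the 13 not called.

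The de novo DNA methylation machinery changed in opposite directions. Dnmt3l, the inactive cofactor of the de novo methyltransferases, was at 3.07 and 2.92 in SNEL#1 and at 5.26 and 5.20 in OSKM#2, 4.71-fold lower (-2.24 ± 0.10, adjusted p = 6.86e-08). The methyltransferase Dnmt3b was at 3.22 and 3.32 in SNEL#1 and at 5.09 and 5.27 in OSKM#2 (-1.91 ± 0.09, adjusted p = 5.7e-08). The groups of arrays were far apart for both genes, and Oct4-GFP ESCs lay between the lines, at 4.19 and 4.18 for Dnmt3l and 4.49 and 4.48 for Dnmt3b. Dnmt3a, the other de novo enzyme, rose to -0.19 and -0.25 in SNEL#1, against -1.26 and -1.23 in OSKM#2 (1.02 ± 0.09, adjusted p = 7.12e-06). Zfp57, which protects imprints by recruiting Trim28, fell (-0.83 ± 0.11, adjusted p = 0.00012), as did Trim28 itself (-0.67). The maintenance pair Dnmt1 and Uhrf1 (each -0.18) and the oxidases Tet1, Tet2 and Tet3 (-0.12, -0.04 and -0.19) were not called. In all, 2 of 17 genes of the methylation list were called higher and 7 lower.

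Targets of signalling pathways split within each list. Among ERK targets, 3 of 15 were called higher and 10 lower (median -0.25). Etv4, an ETS factor induced by FGF signalling, was at 2.53 and 2.24 in SNEL#1, against 4.68 and 4.62 in OSKM#2 (-2.27 ± 0.12, adjusted p = 1.54e-07), and the ERK phosphatase Dusp6 was at 1.63 and 1.74, against 2.65 and 2.73 (-1.01 ± 0.08, adjusted p = 3.29e-06). The immediate early genes went the other way. Egr1 rose to -2.07 and -1.94 in SNEL#1, against -4.29 and -4.11 in OSKM#2 (2.20 ± 0.13, adjusted p = 3.44e-07), and Fos rose by 1.57 ± 0.07 (adjusted p = 5.94e-08).

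Of 14 Wnt targets, 4 were called higher and 6 lower (median -0.38, which was -0.10 with slide as a block, -0.14 with normexp and -0.13 without SNEL#1 array 2). Cdx2, a caudal homeobox factor of trophoblast and posterior embryo, had the largest fall of any gene named by the rule. It was at -5.86 and -5.31 in SNEL#1, against -1.21 and -1.39 in OSKM#2 and -1.80 and -1.83 in Oct4-GFP ESCs. The difference was -4.29 ± 0.69 (adjusted p = 0.000579), and 1 of the SNEL#1 arrays was well above background at the probe (mm9 chr5:148112547-148112606). Sp5, a direct target of the Wnt effector beta-catenin, fell to 0.37 and 0.23 in SNEL#1, against 2.46 and 2.52 in OSKM#2 (-2.19 ± 0.10, adjusted p = 5.22e-08). Axin2 (-1.35) and the secreted Wnt inhibitor Dkk1 (-1.80) were also called lower, but neither call held without OSKM#2 array 1 or array 2 (adjusted p = 0.0953 and 0.109 for Axin2, 0.105 and 0.082 for Dkk1). For Axin2 the call also went without either SNEL#1 array (adjusted p = 0.126 and 0.0663) and for Dkk1 without SNEL#1 array 1 (adjusted p = 0.137), and 1 SNEL#1 array was well above background for each. Rnf43, a ubiquitin ligase that removes Wnt receptors, rose by 1.17 ± 0.19 (adjusted p = 0.000644).

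In the BMP and Nodal list, 9 of 21 genes were called higher and 6 lower. The ligand Bmp4 was at 0.84 and 0.64 in SNEL#1, against 3.25 and 3.26 in OSKM#2, a 5.72-fold fall (-2.52 ± 0.08, adjusted p = 8.39e-09). The BMP targets Id1 (-1.76 ± 0.17), Id3 (-1.44) and Id4 (-0.75) fell, whereas Id2 rose (1.44). Among secreted antagonists, Fst (follistatin), which binds activin, fell to -2.07 and -1.85, against -0.13 and -0.01 in OSKM#2. Grem1, a BMP antagonist, was at -3.38 and -3.43 in SNEL#1 and not well above background on either OSKM#2 array, which makes it at least 8.76-fold higher (adjusted p = 5.04e-06). Inhba, the activin A subunit, was likewise at least 5.82-fold higher (adjusted p = 0.00643). Such a bound sets the bright line's mean against, on each dim array, the higher of the gene's own value and the lowest signal called well above background.

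Fibroblast genes, many of them for collagen and its matrix, were among the largest rises. Of 28 measured, 16 were called higher and 2 lower, against 11.9% and 19.6% of all genes, with a median of 1.31, or 1.02 with genes below background in OSKM#2 set at their bound, 0.64 with normexp and 0.73 in the authors' value table. Col3a1, a fibrillar collagen chain, was at 0.29 and 0.15 in SNEL#1, against -5.11 and -5.40 in OSKM#2 (mm9 chr1:45405589-45405648), a 44.5-fold difference (5.48 ± 0.28, adjusted p = 1.45e-07). Col1a2, the second chain of type I collagen, was at 1.95 and 1.66, against -3.22 and -3.33 (5.08 ± 0.18, adjusted p = 1.45e-08). Both collagens were therefore measured well above background in both lines, and the groups lay far apart. Oct4-GFP ESCs stood near SNEL#1, with Col3a1 at -0.79 and -0.76 and Col1a2 at 1.26 and 1.11.

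Lox, the lysyl oxidase that cross-links collagen, was at -2.70 and -2.51 in SNEL#1 and not well above background in OSKM#2, at least 15.3-fold higher (adjusted p = 3.19e-07). The same bound was 15-fold for Ccdc80, an adhesion protein of the matrix, and 29.2-fold for the matrix glycoprotein Thbs1. Outside the list, at least 20.2-fold for Mgp, an inhibitor of calcification, 16.9-fold for the chemokine Ccl7, 16.2-fold for the stromelysin Mmp3, 13.5-fold for Ctla2a, 12.8-fold for the serpin Serpina3n, 11.9-fold for the phosphatase Dusp8 and 8.69-fold for the adhesion molecule Vcam1 completed the 12 largest rises. Mmp3 was uneven in OSKM#2, at -5.54 and -7.98, and was not called from the 4 arrays alone (adjusted p = 0.0706). The shift was not shared by all fibroblast genes. Vim (vimentin, -0.71) and Fstl1 (-0.39) fell, and Thy1 (-0.59), Twist1 (0.13), Cdh11 (-0.14) and Pdgfra (0.31) were not called. The summed linear level of the 28 genes was 459 and 456 in SNEL#1, 425 and 467 in OSKM#2 and 488 and 448 in Oct4-GFP ESCs. On the SNEL#1 arrays 25 and 28 of the genes were well above background, against 20 on each OSKM#2 array and 27 and 28 on those of the ESCs. Their median level was -1.91 and -2.02 in SNEL#1, -3.64 and -3.50 in OSKM#2, and -2.66 and -2.41 in the ESCs. Whether other cells in the cultures had a part in these differences was not tested. In bulk RNA, more cells of a type and more RNA per cell cannot be told apart.

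Contractile genes, which fibroblasts and smooth muscle share, had 6 of 13 called higher and 1 lower. Acta2, smooth muscle actin, was at -1.05 and -0.99 in SNEL#1, against -3.64 and -3.74 in OSKM#2 (2.67 ± 0.22, adjusted p = 3.56e-06), and Oct4-GFP ESCs were at -0.73 and -0.78. The actin cross-linker Flna was the gene called lower (-0.59 ± 0.07).

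**Figure D2:**
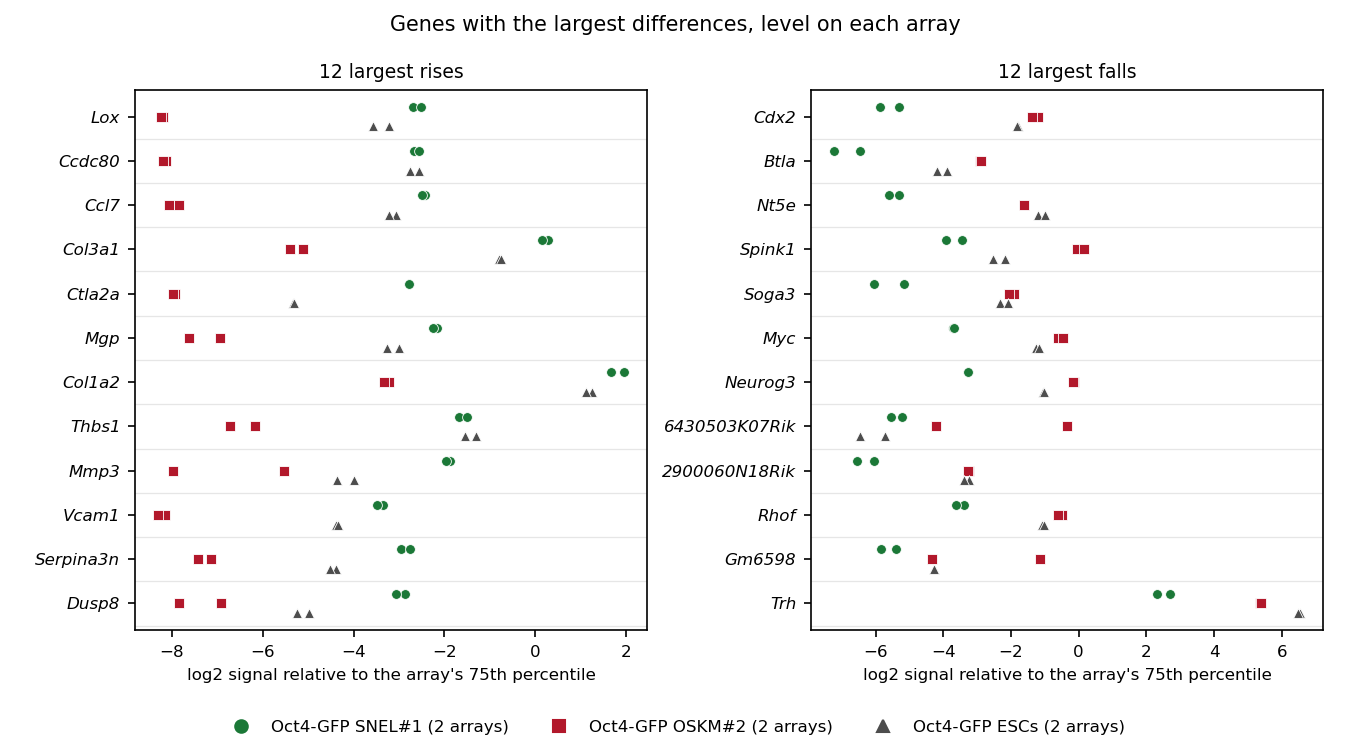
Levels on each array (log2 signal relative to the array's 75th percentile) of the 12 genes with the largest rise and the 12 with the largest fall in SNEL#1 against OSKM#2, with 2 points for each line. For Lox, Ccdc80, Col3a1 and Col1a2 the Oct4-GFP ESCs lie near SNEL#1, and for Cdx2, Nt5e, Soga3 and Rhof near OSKM#2.

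Besides Cdx2 and Myc, the 12 largest falls held genes of several functions. Trh, the precursor of thyrotropin-releasing hormone, was the brightest of them, at 2.70 and 2.32 in SNEL#1, against 5.37 and 5.39 in OSKM#2 and 6.53 and 6.48 in Oct4-GFP ESCs (-2.87 ± 0.11, adjusted p = 1.92e-08). Nt5e, the surface 5′-nucleotidase CD73, was at -5.61 and -5.31, against -1.62 and -1.61 (-3.85 ± 0.38, adjusted p = 1.66e-05), and the trypsin inhibitor Spink1 was at -3.93 and -3.44, against -0.06 and 0.15 (-3.74 ± 0.42). Neurog3, a proneural factor of endocrine pancreas, fell by 3.11 on the log2 scale (adjusted p = 5.04e-06). Btla, a lymphocyte receptor, was not well above background in SNEL#1 and at least 5.08-fold lower there. For Nt5e, and for Soga3, 2900060N18Rik, Gm6598 and 6430503K07Rik below, only 1 of the SNEL#1 arrays was well above background, so their fitted sizes rest partly on dim signal. Rhof (-2.96), Soga3 (-3.62), 2900060N18Rik (-3.02), Gm6598 (-2.88) and 6430503K07Rik (-3.11) made up the rest. The last pair was uneven in OSKM#2, with Gm6598 at -1.13 and -4.33 and 6430503K07Rik at -0.34 and -4.20. Without SNEL#1 array 1 Gm6598 was no longer called (adjusted p = 0.0533), and without OSKM#2 array 1 the difference of 6430503K07Rik was -1.18 (adjusted p = 0.295), its call also being lost without either SNEL#1 array (adjusted p = 0.118 and 0.086).

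Germline genes rose. Of 29 measured autosomal genes, 17 were called higher and 3 lower, against 11.9% and 19.6% of all genes, with a median of 0.66. Stra8, the retinoic acid target that gates entry into meiosis, was at 5.34 and 5.33 in SNEL#1, 3.16 and 3.23 in OSKM#2, and 1.37 and 1.38 in Oct4-GFP ESCs. It was 4.4-fold higher in SNEL#1 (2.14 ± 0.06, adjusted p = 6.37e-09). Smc1b, the meiotic cohesin subunit, was at 2.75 and 2.71, against 0.81 and 0.88 (1.89 ± 0.08, adjusted p = 2.59e-08). Sycp3 and Sycp1, which build the synaptonemal complex that pairs meiotic chromosomes, rose by 1.31 ± 0.07 and 1.20. Members with a role in the piRNA pathway, which silences transposons in germ cells, moved in both directions, with Mov10l1 (1.22 ± 0.18), Piwil2 (0.90) and Mael (0.66) higher, Gtsf1 (-0.44) and Tdrd12 (-0.25) lower, and Tdrd9 (0.37) not called. Also higher were the germ cell RNA helicase Ddx4 (1.14) and the RNA-binding protein Dazl (0.84). Rpl10l (-0.58) was the other member called lower. The call of Slc25a31 (1.21) was lost without SNEL#1 array 2 or either OSKM#2 array (adjusted p = 0.0679 to 0.112).

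Many promoters of this list hold the E-box CACGTG, a palindrome that reads alike on both strands and is bound by MYC-MAX and MGA-MAX dimers. Of the genes called higher, 15 had a promoter of 300 bases in RefSeq (GRCm38.p6), and 8 of these (53.3%) held the E-box, as did 4 of 9 promoters of genes not called (44.4%) and 0 of 3 of those called lower. Over all 32851 promoters the share was 7.15%, and over their 27025 genes it was 8.09%. The list shares count a gene if any of its promoters held the motif, so the share over genes is the like one. The promoters of Sycp3 (chr10:88459337-88459636, plus strand, 2 matches), Mael (chr1:166238695-166238994, minus strand, 1 match) and Mov10l1 (chr15:88982744-88983043, plus strand, 1 match) are shown because they hold the motif in genes that rose, with the E-box in capitals, and they contain 15, 24 and 20 CpG sites. The promoters of Stra8 and Smc1b, which rose more than these 3 genes, held 0 matches. A match is a run of letters and not a measured binding site.
Sycp3: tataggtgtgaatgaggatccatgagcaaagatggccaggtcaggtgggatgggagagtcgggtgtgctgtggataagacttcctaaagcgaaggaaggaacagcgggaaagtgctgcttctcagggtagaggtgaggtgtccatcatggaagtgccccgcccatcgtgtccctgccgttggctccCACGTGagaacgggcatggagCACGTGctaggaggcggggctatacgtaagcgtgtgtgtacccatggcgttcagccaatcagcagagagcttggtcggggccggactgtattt
Mael: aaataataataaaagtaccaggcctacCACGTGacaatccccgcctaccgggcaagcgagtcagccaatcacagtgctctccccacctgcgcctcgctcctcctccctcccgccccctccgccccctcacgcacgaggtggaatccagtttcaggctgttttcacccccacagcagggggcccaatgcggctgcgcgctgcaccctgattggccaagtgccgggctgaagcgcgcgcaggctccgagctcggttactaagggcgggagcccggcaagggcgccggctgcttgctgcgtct
Mov10l1: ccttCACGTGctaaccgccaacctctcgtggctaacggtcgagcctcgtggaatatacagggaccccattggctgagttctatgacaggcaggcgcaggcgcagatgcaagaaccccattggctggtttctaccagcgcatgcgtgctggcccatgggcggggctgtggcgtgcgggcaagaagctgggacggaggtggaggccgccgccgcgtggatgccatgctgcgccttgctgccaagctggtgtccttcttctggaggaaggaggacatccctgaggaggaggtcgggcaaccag

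Two-cell-like and Pramel genes were expressed in both lines. The 20 measured two-cell-like genes, which mark a rare state of ESCs that resembles the two-cell embryo, had 1 member called higher, Zscan4e, and 0 lower, also at an unadjusted p under 0.05 in limma. Other settings called 0 to 5 higher, and 1 lower with slide as a block. It was at 4.26 and 4.21 in SNEL#1 and at 3.70 and 3.74 in OSKM#2, against -3.14 and -3.22 in Oct4-GFP ESCs, and the call between the lines (0.52 ± 0.15, adjusted p = 0.0206) was lost without any 1 of the 4 arrays and from the 4 arrays alone (adjusted p = 0.0504 to 0.0952). The summed level of the list was 108 and 107 in SNEL#1 and 77.2 and 82.2 in OSKM#2, against 11.7 and 10.7 in Oct4-GFP ESCs. Members of the Pramel family of germline and early embryo genes had 5 of 17 called higher and 1 lower. Pramel31 was at 1.15 and 1.09 in SNEL#1 and at -0.07 and -0.21 in OSKM#2 (1.26 ± 0.21, adjusted p = 0.000779), and not well above background in Oct4-GFP ESCs. Among 18 X-linked germline genes 4 were called higher and 1 lower, with the homeobox genes Rhox9 (1.21 ± 0.08) and Rhox6 (1.13 ± 0.11) rising and Rhox5 falling (-0.84 ± 0.06).

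Antigen presentation genes rose, with 13 of 19 called higher and 2 lower, against 11.9% and 19.6% of all genes, and a median of 1.24. Tap1 and Tap2 form the transporter that carries peptides into the endoplasmic reticulum. Tap1 was at -2.59 on both arrays of SNEL#1 and at -4.27 and -4.28 in OSKM#2 (1.68 ± 0.07, adjusted p = 3.14e-08), and Tap2 at -0.53 and -0.34, against -2.39 and -2.43 (1.98 ± 0.11, adjusted p = 2.45e-07). The class I heavy chain gene H2-Q2 was at 3.76 and 3.80, against 1.93 on both arrays (1.85 ± 0.06, adjusted p = 6.37e-09). H2-M3, which presents formylated peptides, rose by 1.81 ± 0.13, the light chain B2m by 1.24 and H2-K1 2.14-fold. Oct4-GFP ESCs were lower than both lines for Tap1 (-5.49 on both arrays) and Tap2 (-3.10 and -3.26). Tapbp (-0.37), which bridges class I molecules to the transporter, and the immunoproteasome subunit Psmb10 (-0.85) fell. The call of H2-Q1 (1.88) rested on arrays near background and was lost without SNEL#1 array 2 or OSKM#2 array 2 (adjusted p = 0.192 and 0.125). Class I genes are near-identical copies of one another, so their probes may share signal.

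Genes of the wider interferon response did not move one way, with 8 of 32 called higher and 6 lower (median 0.02). Oasl2, an interferon-induced protein, rose to -2.56 on both arrays of SNEL#1, against -6.07 and -5.33 in OSKM#2, where 1 array was well above background (3.14 ± 0.38, adjusted p = 7.42e-05). The RNA sensor Ddx58 (RIG-I) fell to 1.30 and 1.27, against 3.25 and 3.31 (3.99-fold lower, adjusted p = 6.37e-09). Of the antigen presentation genes called higher, 10 had a promoter in RefSeq, and 5 of these (50%) held TTTCACTT or its reverse complement AAGTGAAA, a core of the interferon-stimulated response element. So did 1 of 2 promoters of genes not called, 0 of 2 of genes called lower and 6 of 14 over the list (42.9%). Over all promoters the share was 1.6%, and over all genes with a promoter 1.91%. The 6 list members with a match were all class I genes (H2-K1, H2-D1, H2-Q4, H2-Q6, H2-Q7 and H2-M3). Such genes are copies of one another, so their matches may not be separate cases. The motif does not overlap the E-box. The promoters of H2-K1 (chr17:34000298-34000597, minus strand) and H2-Q7 (chr17:35438905-35439204, plus strand) are shown as members that rose and hold it, with the match in capitals, 1 in each, and 14 and 12 CpG sites.
H2-K1: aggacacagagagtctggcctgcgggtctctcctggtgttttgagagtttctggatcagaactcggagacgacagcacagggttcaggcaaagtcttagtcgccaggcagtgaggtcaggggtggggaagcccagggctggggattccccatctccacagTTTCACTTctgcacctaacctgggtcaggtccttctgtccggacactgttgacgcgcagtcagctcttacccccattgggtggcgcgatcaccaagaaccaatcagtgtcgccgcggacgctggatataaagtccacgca
H2-Q7: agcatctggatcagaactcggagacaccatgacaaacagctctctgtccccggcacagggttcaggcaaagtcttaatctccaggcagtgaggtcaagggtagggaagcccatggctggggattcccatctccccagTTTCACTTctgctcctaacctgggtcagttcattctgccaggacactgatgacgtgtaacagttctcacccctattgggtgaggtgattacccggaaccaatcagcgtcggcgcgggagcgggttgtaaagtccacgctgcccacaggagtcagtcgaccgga

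**Figure D3:**
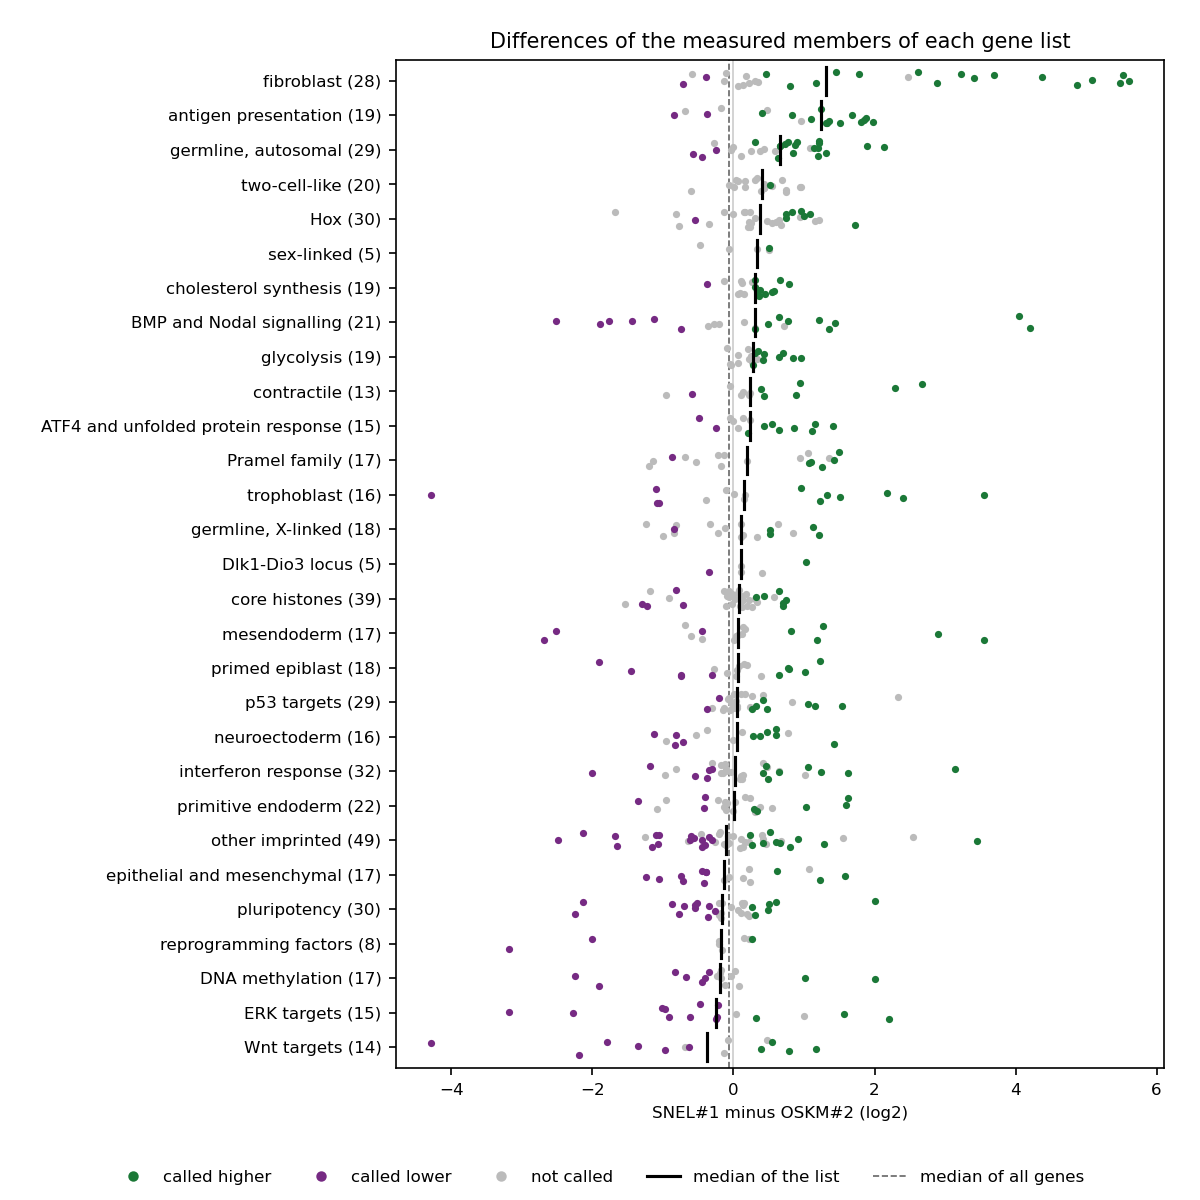
Difference between SNEL#1 and OSKM#2 (log2) of every measured member of 29 gene lists, ordered by median, with the number measured in brackets, points marked by call, a black bar at the list median and a dashed line at the median of all genes (-0.07). The fibroblast, antigen presentation and autosomal germline lists have the highest medians (1.31, 1.24 and 0.66), and the Wnt and ERK target lists the lowest (-0.38 and -0.25).

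Lineage genes shifted singly, in both directions within each list. Of 16 trophoblast genes 7 were called higher and 4 lower. Krt7, a keratin of trophoblast and simple epithelia, was at 0.96 and 0.72 in SNEL#1, against -1.57 and -1.58 in OSKM#2 (2.41 ± 0.11, adjusted p = 7.67e-08), and the hormone gene Sct (secretin) at 2.21 and 2.06, against -0.02 and -0.08 (2.18 ± 0.12, adjusted p = 2.43e-07). Hand1, a factor of trophoblast giant cells and mesoderm, was uneven in SNEL#1, at -1.19 and -3.65, against -6.29 and -5.64 in OSKM#2, where 1 array was well above background, and was not called from the 4 arrays alone (adjusted p = 0.12). In the mesendoderm list 5 of 17 were called higher and 3 lower. Flt1, a VEGF receptor, was at -0.60 and -0.55, against -3.41 and -3.55 (2.90 ± 0.15, adjusted p = 1.36e-07), while Evx1, a homeobox factor of the posterior streak, was at -4.33 and -3.65, against -1.34 and -1.27 (-2.69 ± 0.28, adjusted p = 2.64e-05), with 1 SNEL#1 array well above background.

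In primitive endoderm the counts were 5 of 22 higher and 3 lower. Gata6, a driver of that lineage, was at -0.64 and -0.79 in SNEL#1, against -2.33 and -2.29 in OSKM#2 (1.60 ± 0.13, adjusted p = 4e-06), whereas the endocytic receptor Lrp2 fell (-1.36 ± 0.13). The neuroectoderm list had 6 of 16 higher and 4 lower, with the neural progenitor filament Nes rising by 1.42 ± 0.12 and Sox11, a factor of young neurons, lower (-1.13 ± 0.15, not called from the 4 arrays alone, adjusted p = 0.072). Of 18 primed epiblast genes 5 were higher and 5 lower. Fgf5, the classic marker of the primed state, was low in both, at -3.89 and -4.10 in SNEL#1, against -2.58 and -2.50 in OSKM#2 (-1.45 ± 0.22, adjusted p = 0.000323). Homeobox genes of the Hox clusters had 7 of 30 higher and 1 lower, led by Hoxb13, at -0.07 and -0.13, against -1.80 and -1.84 (1.72 ± 0.18, adjusted p = 2.05e-05).

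Imprinted genes, which are expressed from 1 parental allele, changed in both directions, with 10 of 49 called higher and 16 lower outside the Dlk1-Dio3 locus. H19, a maternally expressed non-coding RNA, was at 0.08 and -0.15 in SNEL#1, -3.57 and -3.42 in OSKM#2, and -2.24 and -2.47 in Oct4-GFP ESCs. It was 11-fold higher in SNEL#1 (3.46 ± 0.12, adjusted p = 1.23e-08), and of its 7 probes 6 were higher and 1, dim on every array, was not (-0.10). Igf2, its paternally expressed neighbour, was not called (0.67). The paternally expressed Mest was at 1.17 and 1.30, against 3.36 and 3.40 (-2.14 ± 0.27, adjusted p = 9.74e-05), and Mcts2 (-1.68 ± 0.09), Zdbf2 (-1.65 ± 0.26) and Nnat (-2.49 ± 0.65) were also lower. The call of Nnat was lost without SNEL#1 array 1, without OSKM#2 array 2 and from the 4 arrays alone (adjusted p = 0.102, 0.0733 and 0.0762), and 1 SNEL#1 array was well above background for it.

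In the Dlk1-Dio3 locus, whose maternal non-coding RNAs are often silenced in mouse iPSCs, Meg3 (Gtl2) was at 4.24 and 4.27 in SNEL#1, 3.20 and 3.24 in OSKM#2, and 4.69 and 4.48 in Oct4-GFP ESCs. It rose 2.04-fold (1.03 ± 0.08, adjusted p = 3.76e-06) by its brightest probe, and the others gave 0.80 and 0.47, with no call for the mean of the 3 (0.77, adjusted p = 0.18). Rtl1 and Rian of this list were not among the genes kept. Mirg, another non-coding RNA of the locus, was at 1.26 on both arrays of SNEL#1 and at 1.13 and 1.19 in OSKM#2 (0.10, adjusted p = 0.858). The protein-coding Dlk1 (0.40) and Dio3 (0.10) were not called either, and Begain fell slightly (-0.35 ± 0.07, adjusted p = 0.00175, but 0.117 from the 4 arrays alone). Dlk1 was called higher with normexp (adjusted p = 0.0301), the authors' table (0.0273), slide as a block (0.0331) and the replicate block (0.0203). The RNA from this locus was thus measured in both lines.

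Metabolic lists had small differences that mostly ran upward. Glycolysis genes had 9 of 19 called higher and 0 lower (median 0.28), with the aldolase Aldoc at 6.83 and 6.77 in SNEL#1, against 5.79 and 5.90 in OSKM#2 (0.96 ± 0.06, adjusted p = 6.89e-07), and the glucose transporter Slc2a1 at 7.04 and 7.19, against 6.39 and 6.45 (0.70 ± 0.06). At an unadjusted p under 0.05 in limma the number lower was also 0. Cholesterol synthesis had 11 of 19 higher and 1 lower (median 0.31), led by Insig1, a sterol-responsive brake on the pathway (0.79 ± 0.13, adjusted p = 0.00066). From the 4 arrays alone 4 glycolysis and 2 cholesterol genes were called higher. The ATF4 and unfolded protein response list had 8 of 15 higher and 2 lower. Its stress factors Atf3 (1.41 ± 0.08, adjusted p = 2.34e-07) and Ddit3, also known as CHOP (1.12 ± 0.07, adjusted p = 4.44e-07), rose, while the chaperone Hspa5 fell (-0.25) and Atf4 itself was not called (0.23). Among p53 targets 7 of 29 were higher and 2 lower, with Pmaip1 (Noxa), which promotes cell death, rising by 1.15 ± 0.06. Core histone genes had 6 of 39 higher and 4 lower, which does not set them apart from the 11.9% and 19.6% of all genes, and epithelial and mesenchymal genes 3 of 17 higher and 8 lower. In the sex-linked list 1 of 5 was called, Eif2s3y (0.50 ± 0.11, adjusted p = 0.004, but 0.0574 from the 4 arrays alone).

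Beside Oct4-GFP ESCs, SNEL#1 had 4011 genes called higher (14.8%) and 5959 lower (21.9%), 36.7% in all, and OSKM#2 had 3025 higher (11.1%) and 2600 lower (9.57%), 20.7% in all. Both comparisons use the same ESC arrays, on which chromosome 8 genes had a median 0.122 above that of the 10 lines, relative to all genes. Without OSKM#2 array 1 or array 2 the OSKM#2 total of 5625 was 3495 or 3671. Some collagen and matrix genes set OSKM#2 apart. Col1a2 differed from ESCs by 0.62 in SNEL#1 and by -4.46 in OSKM#2 (adjusted p = 0.0164 and 2.12e-08). Col4a2 did not set OSKM#2 apart, with line means of -0.10 in SNEL#1, -1.13 in OSKM#2 and -1.48 in Oct4-GFP ESCs. Myc, Lin28a and Cdx2 set SNEL#1 apart, with differences from ESCs of -2.49, -2.44 and -3.77 in SNEL#1 and 0.69, -0.43 and 0.51 in OSKM#2. The last of these was not called (adjusted p = 0.668). Germline genes were above ESCs in both lines, by 3.96 in SNEL#1 and 1.82 in OSKM#2 for Stra8, and by 2.79 and 0.90 in the same order of lines for Smc1b. For Dnmt3l the lines lay on opposite sides of ESCs, by -1.19 in SNEL#1 and 1.04 in OSKM#2.

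**Figure D4:**
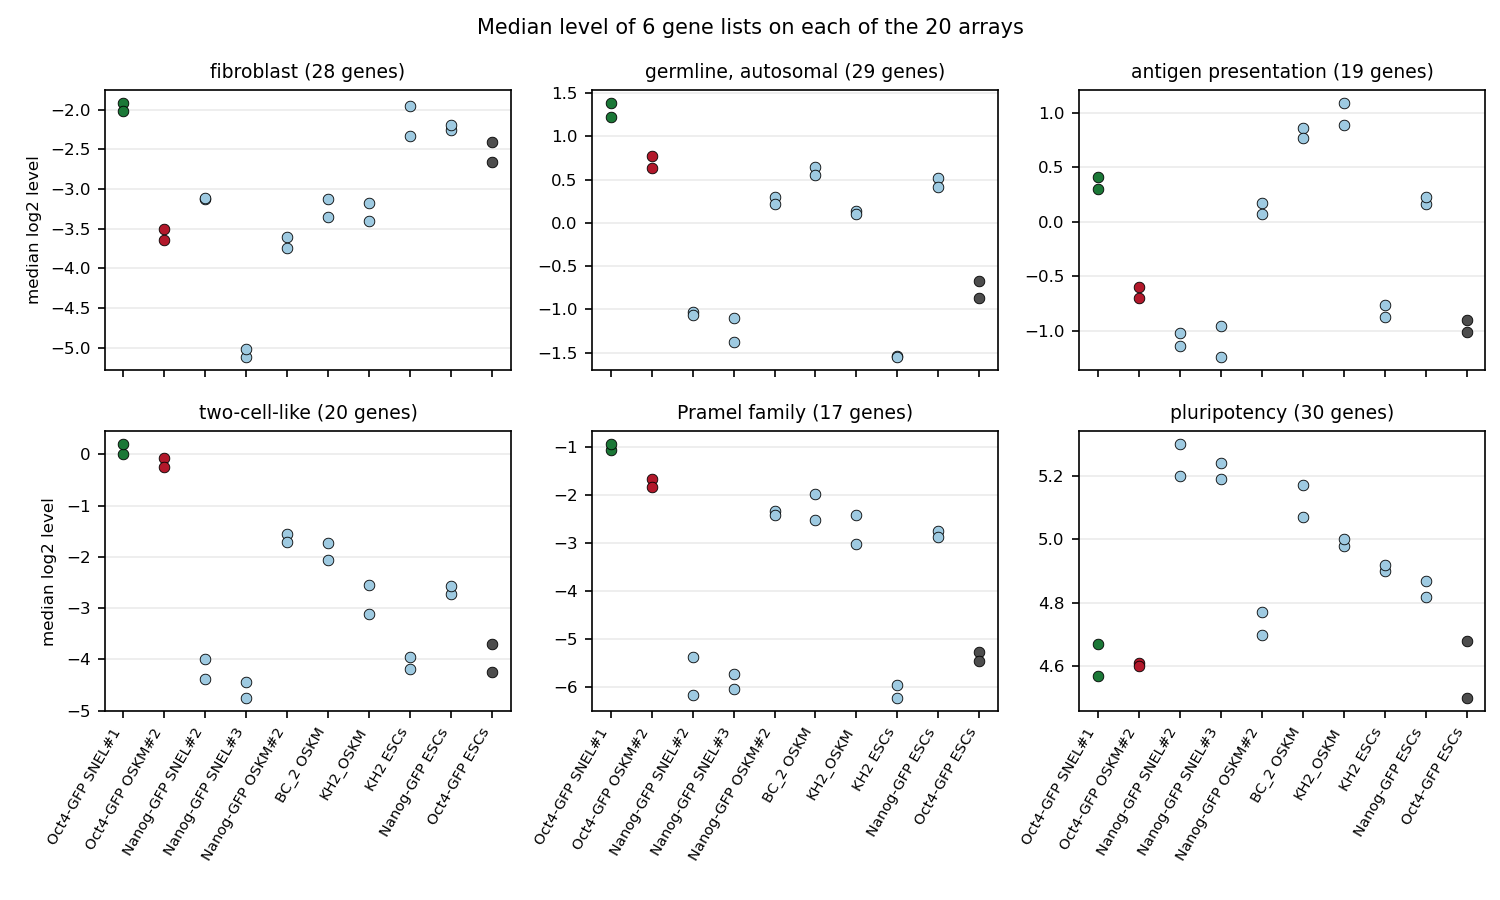
Median log2 level of 6 gene lists on each of the 20 arrays, 2 points per line, with Oct4-GFP SNEL#1 in green, Oct4-GFP OSKM#2 in red, Oct4-GFP ESCs in dark grey and the other lines in light blue. Autosomal germline medians are 1.22 and 1.39 in SNEL#1, 0.63 and 0.77 in OSKM#2, and -0.87 and -0.67 in Oct4-GFP ESCs, and those of Nanog-GFP SNEL#2 and SNEL#3 lie below -1.

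The same contrast in Nanog-GFP lines, which share no array with the Oct4-GFP ones, shows which differences ran the same way in both origins. In both, the OSKM line was graded poor and the SNEL lines good or high, so factors and grade cannot be told apart. The Nanog-GFP contrast called 9526 genes (35.1%), 5061 higher in the mean of SNEL#2 and SNEL#3 and 4465 lower. Of the 1022 genes called at least 2-fold higher in Oct4-GFP SNEL#1, 442 (43.2%) were higher in the Nanog-GFP SNEL lines, where 55.2% of all genes were, 255 (25%) were called higher and 420 (41.1%) were called lower. Of the 692 called at least 2-fold lower, 385 (55.6%) were lower in the Nanog-GFP SNEL lines, where 44.8% of all genes were, 253 (36.6%) were called lower and 147 (21.2%) higher. The difference between origins was itself called for 9621 of all genes (35.4%), 826 of the 1022 (80.8%) and 505 of the 692 (73%). Both sets were picked by their Oct4-GFP difference, which is itself part of the difference between origins. The choice of genes therefore favours a larger share than among all genes, and no conclusion is drawn from it.

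Fibroblast genes did not move one way in the Nanog-GFP lines, with 11 of 28 called higher and 9 lower there (median 0.09), and the difference between origins was called for 21. Col1a2 differed by 5.08 in the Oct4-GFP lines and by 1.12 in the Nanog-GFP lines (difference between origins adjusted p = 1.74e-07). Its line means were -0.73 in Nanog-GFP SNEL#2, -3.69 in Nanog-GFP SNEL#3 and -3.33 in Nanog-GFP OSKM#2, so only SNEL#2 was higher there, as for Col3a1 (-2.01, -5.29 and -5.21). Dnmt3l fell in both (-2.24 and -2.18), with a difference between origins of -0.06 (adjusted p = 0.853), while Etv4 fell further in the Nanog-GFP lines (-2.27 and -3.20, difference between origins adjusted p = 0.000631). Dppa3 rose in both (2.00 and 1.63), with no difference between origins called (adjusted p = 0.246). A p that misses the threshold does not show that the sizes were equal.

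Germline and antigen presentation genes ran the opposite way in the Nanog-GFP lines. Of the 29 autosomal germline genes, 2 were called higher and 23 lower there (median -1.37), and of the 19 antigen presentation genes 3 higher and 11 lower (median -0.67). The difference between origins was called for 27 and 14 of them. Stra8 differed by 2.14 in the Oct4-GFP lines and by -1.73 in the Nanog-GFP lines, and its line means were -2.11 in Nanog-GFP SNEL#3, 1.51 in Nanog-GFP SNEL#2 and 1.44 in Nanog-GFP OSKM#2. Of the Nanog-GFP SNEL lines only SNEL#3 was thus lower for Stra8. Tap1 differed by 1.68 and -1.35, but was dim in Nanog-GFP SNEL#3 (-5.68). Falls turned round as well, with Myc at -3.18 in the Oct4-GFP lines and 0.88 in the Nanog-GFP lines, Bmp4 at -2.52 and 0.71, and Cdx2 at -4.29 and 2.20. For Bmp4 the line mean was 2.74 in Nanog-GFP SNEL#3, but that of Nanog-GFP SNEL#2 (1.60) was near Nanog-GFP OSKM#2 (1.46). Cdx2 was dim in these Nanog-GFP lines, with means of -4.85 in SNEL#3, -5.15 in SNEL#2 and -7.2 in OSKM#2. Its size there is therefore not exact. Lin28a, lower in Oct4-GFP SNEL#1, was not called in the Nanog-GFP lines (0.19, adjusted p = 0.117), and the difference between origins was -2.20 (adjusted p = 2.02e-07). Meg3 (1.03 and 4.73) and Mirg (0.10 and 4.82) rose far more in the Nanog-GFP lines, where the line means of Meg3 were 6.73 in SNEL#3, 6.12 in SNEL#2 and 1.70 in Nanog-GFP OSKM#2.

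**Figure D5:**
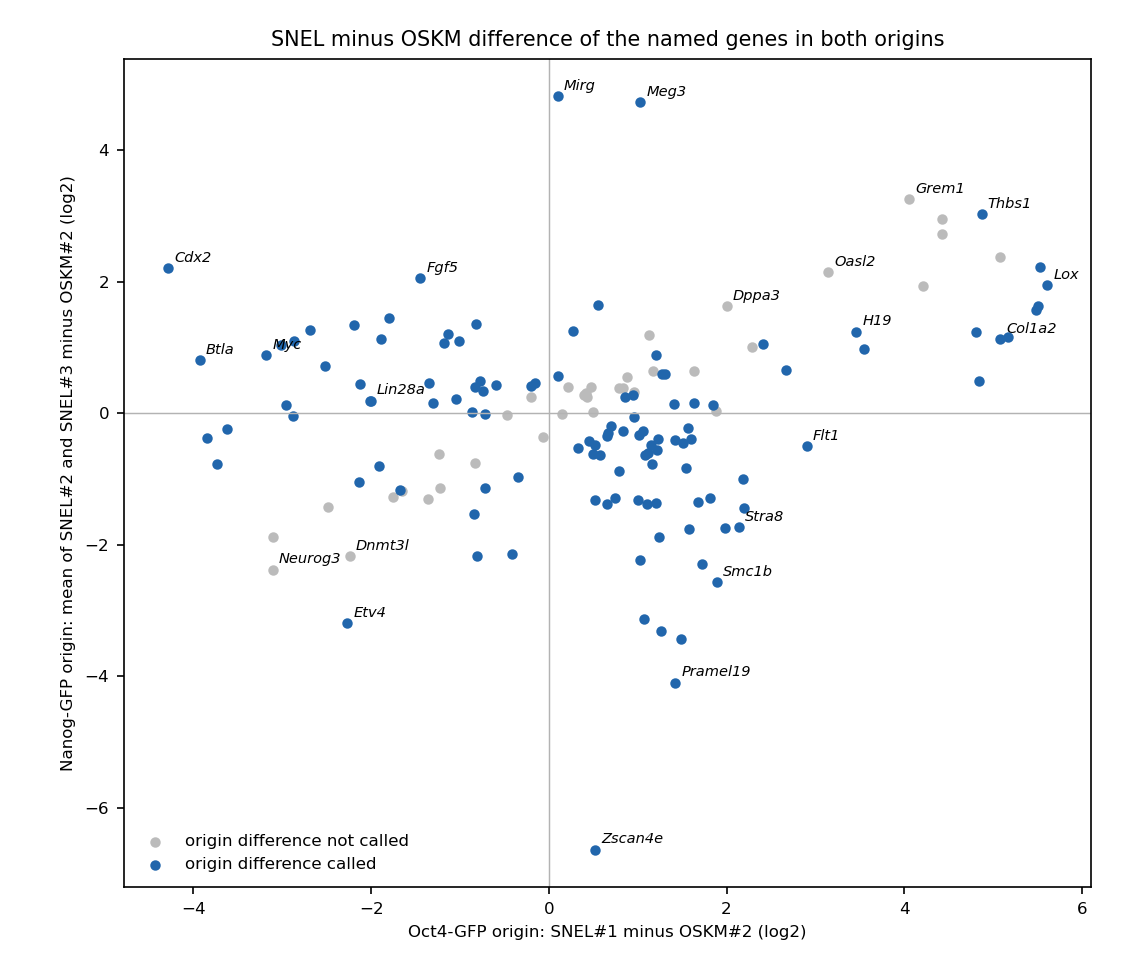
SNEL minus OSKM difference (log2) of the named genes in the Oct4-GFP lines (horizontal axis) and the Nanog-GFP lines (vertical axis), blue where the difference between origins was called (116 genes) and grey where it was not. Thbs1 and Lox, which were not well above background in Oct4-GFP OSKM#2, lie above 0 on both axes, and Zscan4e, Pramel19, Smc1b and Stra8 lie above 0 for Oct4-GFP and below 0 for Nanog-GFP. Lox was also dim in Nanog-GFP OSKM#2 (-7.87), SNEL#3 (-6.47) and SNEL#2 (-5.37), and Thbs1 in Nanog-GFP OSKM#2 (-7.7) and SNEL#3 (-6.26). Zscan4e (-6.41) and Pramel19 (-6.52) were dim in Nanog-GFP SNEL#3. The Nanog-GFP sizes of these genes are not exact.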

How the data were processed

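Agilent 1-colour arrays of 10 mouse cell lines, 2 per line, were read from the deposited scanner files. Per the file headers, Feature Extraction 10.1.1.1 (protocol GE1-v5_10_Apr08, design 028005, mm9) gave each spot a background-corrected intensity. The authors' deposited value table holds log2 values with array medians of 6.2663 to 6.2801, and its normalization is not given in the sources used here, although the submitters' processing notes name limma. Depth has no counterpart on arrays, and 2 arrays per line limit the precision.

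Here the level was log2 of the processed intensity minus the array's 75th percentile of it. Control spots and flagged outliers were left out, 432 repeated probes were averaged, and 26413 of 55681 probes were matched to RefSeq by accession, which updated 3093 symbols. Genes were kept if well above background on at least 4 arrays, each by its brightest probe, leaving 27161. Of 33 named genes with more than 1 probe, 4 had probes that differed in sign (H19, Axin2, Stard4 and Sall4). limma 3.58.1 (R 4.3.3) fitted the 10 lines to all 20 arrays with Benjamini-Hochberg adjustment over all genes at 0.05, and figures used Python 3.11.15 with matplotlib 3.10.9. On simulated data for this comparison (27037 genes, 150 changed at each size, pooled over draws), 40.7% of 1.5-fold, 51.3% of 2-fold, 68% of 4-fold and 82% of 8-fold changes were recovered, with 6 to 9 false calls per draw. Far fewer genes were changed there than the 31.5% called here, which alters the adjusted threshold. The shares recovered therefore do not give the recovery in the real data.

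The comparison, the gene lists and the tests were chosen with earlier results of these data known. Named genes were the 12 largest rises and 12 largest falls with a symbol, past the threshold, not overlapping between lines and well above background on both arrays of a line, then up to 5 called members of each list by size, the 8 factors, Dlk1, Meg3, Mirg, Dio3 and the sex-linked list. Other list members are named to show what a list holds. Xist and Kdm5d were not among the genes kept. Alternatives were quantile normalization, normexp (offset 50), the authors' table, other filters, the mean of probes, blocks for slide or replicate number, the 4 arrays alone, leaving out arrays, values within slide 1 and, added after seeing the data, leaving out KH2_OSKM. Array 1 of both lines lay on slide 1, with SNEL#1 array 2 on slide 3 and OSKM#2 array 2 on slide 2.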

Additional observations from a re-analysis of the deposited data

Results flagged for a closer look

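The following genes stood out because their SNEL minus OSKM difference was called in opposite directions in the Oct4-GFP and the Nanog-GFP lines, with a called difference between origins (limma) of at least 3 on the log2 scale. They number 27. Over all the named genes, 116 had a difference between origins called, of which 63 were called in opposite directions. Most named genes were picked by their Oct4-GFP difference, which is part of the difference between origins, so these counts are favoured by that choice. Values below are the Oct4-GFP difference minus the Nanog-GFP difference, and their causes were not tested.

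Among early embryo and germline genes the value was 7.16 for Zscan4e, 5.52 for Pramel19, 4.92 for Pramel37, 4.58 for Pramel31, 4.20 for Pramel16, 4.45 for Smc1b and 3.87 for Stra8. Zscan4e differed by 0.52 in the Oct4-GFP lines and by -6.64 in the Nanog-GFP lines. The antigen presentation and interferon genes gave 3.73 for Tap2, 3.12 for Igtp, 3.10 for H2-M3 and 3.04 for Tap1. All of these were higher in Oct4-GFP SNEL#1 and lower in the mean of the Nanog-GFP SNEL lines, although for Stra8 Nanog-GFP SNEL#2 (1.51) was not below Nanog-GFP OSKM#2 (1.44). The 4 Pramel genes were dim in Nanog-GFP SNEL#3, at -6.52 to -6.36, and in Nanog-GFP SNEL#2, at -6.42 to -5.71. Zscan4e (-6.41), Tap1 (-5.68) and H2-M3 (-5.17) were also dim in Nanog-GFP SNEL#3. The lowest levels well above background on its arrays were -4.432 and -4.522. The sizes of all these values are therefore not exact.

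Genes of lineage and structure with a positive value were Hoxb13 at 4.01, the immediate early gene Egr1 at 3.63, Flt1 at 3.40, Krt19 at 3.34, the basement membrane collagen Col4a2 at 3.26 and Sct at 3.18. Negative values were -6.49 for Cdx2, -4.73 for Btla, -4.06 for Myc, -3.97 for Trh, -3.95 for Evx1, -3.53 for Sp5, -3.50 for Fgf5, -3.24 for Dkk1, -3.22 for Bmp4 and -3.00 for Fst. Each gene with a negative value was lower in Oct4-GFP SNEL#1 and higher in the mean of the Nanog-GFP SNEL lines. For Btla and Bmp4, however, Nanog-GFP SNEL#2 (-4.33 and 1.60) was near Nanog-GFP OSKM#2 (-4.37 and 1.46). Flt1, with a positive value, was below Nanog-GFP OSKM#2 (-3.58) in Nanog-GFP SNEL#3 but not in Nanog-GFP SNEL#2 (-3.34). Cdx2 was dim in Nanog-GFP SNEL#3 (-4.85), SNEL#2 (-5.15) and OSKM#2 (-7.2). Hoxb13 (-5.7) and Flt1 (-4.82) were dim in Nanog-GFP SNEL#3, and Fgf5 (-6.27) in Nanog-GFP OSKM#2. The sizes of these values are therefore not exact. In the Oct4-GFP lines, the calls of Zscan4e and Pramel19 were lost without any 1 of the 4 arrays (adjusted p = 0.0655 to 0.0952 and 0.102 to 0.16), and that of Dkk1 without 3 of them (adjusted p = 0.082 to 0.137), with normexp (0.129) and in the authors' value table (0.0527). Zscan4e was also not called from the 4 arrays alone (0.0504). Pramel19 was also not called with quantile normalization (0.0697), slide as a block (0.0684) or no filter on dim probes (0.0595), and Pramel37 not with the mean of probes (0.0855).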

How the results depend on the processing

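Counts of genes called moved by less than 1.5 times under the alternatives, except that the 4 arrays alone gave 1550 genes higher and 1568 lower in SNEL#1, against 3230 and 5318, and that leaving out OSKM#2 array 1 or 2 gave 3495 or 3671 genes between OSKM#2 and Oct4-GFP ESCs. The first fit rests on fewer arrays. Without single arrays, 2406 to 2700 genes were higher and 3797 to 4620 lower in SNEL#1, 8155 to 8986 differed between origins, 9158 to 9597 between Nanog-GFP lines, 8343 to 9609 between SNEL#1 and ESCs, and 3495 to 5676 between OSKM#2 and ESCs. The share of calls that were higher was 37.8%, but 49.7% from the 4 arrays alone, 46.4% in the authors' table (3355 higher, 3875 lower) and 45.2% under quantile normalization. The labels give the arrays of different lines nothing in common but a replicate number, so no pairing was assumed. Array 1 minus array 2 correlated at 0.181 between SNEL#1 and OSKM#2, and at -0.0967 to 0.513 (median 0.168) over all 45 pairs of lines. The replicate block gave 3441 higher and 5662 lower, 10216 between origins, 10148 for Nanog-GFP, 10741 for SNEL#1 and 6505 for OSKM#2 against ESCs. Slide as a block gave 3722 and 5865. No named gene reversed direction while called. Of 140 called named genes, 104 kept their call under every setting and 115 under all but the 4 arrays alone, which lost 29. Sox2 was called with quantile normalization (adjusted p = 0.011), the authors' table (0.0332) and the replicate block (0.0234), and Nanog with quantile normalization (0.0323), the mean of probes (0.0335) and slide as a block (0.0278). Dim genes are a limit, since 49.5% of probes on 1 SNEL#1 array were well above background.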

Other observations

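Several genes that separated SNEL#1 from OSKM#2 stood at SNEL#1-like levels in lines of other origins and grades. They were picked after their values were seen, and no test was run. Flt1 had line means of -0.58 in SNEL#1, -0.74 in KH2_OSKM (poor quality), -0.99 in BC_2 OSKM (good quality) and -0.76 in Nanog-GFP ESCs, against -4.82 to -3.27 in the other 6 lines. Trh was at 2.51, 3.45, 2.67 and 3.81 in the same order of lines, against 5.38 to 8.26 in the others. Tap1 was at -2.59, -2.67, -2.87 and -2.82, against -5.68 to -3.49, and Stra8 at 5.34, 4.35, 3.97 and 4.58, against -2.11 to 3.20. For Myc, KH2_OSKM at -1.98 lay apart from the other 3 of these lines (-3.70, -4.28 and -4.25), against -1.74 to -0.27 in the rest.

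Col1a2 and Lox grouped the lines in another way. Col1a2 had line means of 1.80 in SNEL#1 and 1.19 to 1.96 in the 3 ESC lines, against -3.69 to -0.73 in the other 6 iPSC lines. Lox was at -2.60 in SNEL#1 and -3.40 to -2.52 in the ESC lines, against -8.21 to -5.35 in those iPSC lines. SNEL#1 was thus the one iPSC line of the 7 that lay within or near the ESC range for both genes. The collagen gene Col4a2 did not group the lines so. It was at -0.10 in SNEL#1 and -1.48 to -1.32 in the ESC lines, against -1.13 to -0.36 in the OSKM lines.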
